A study of Homo sapiens with 3 samples.

Results

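The 7 genes described here act on phosphate during mineralization of bone. They are ALPL, PHOSPHO1, ENPP1, ANKH, SLC20A1, SLC20A2 and PHEX, chosen by function out of 20163 protein-coding genes. Earlier results of these data were known at the choice, and the paper had shown overlapping RUNX2 and CBFB peaks at ALPL. Every peak with a base within 25 kb of the gene body was taken from the RUNX2 and CBFB peak lists of SAOS2 cells, which gave 17 of 9941 RUNX2 peaks and 28 of 27246 CBFB peaks. SAOS2 is an untreated, p53 null human osteosarcoma (OS) line, and chromatin immunoprecipitation with sequencing (ChIP-seq) was done with a custom-made RUNX2 antibody and a commercial CBFB antibody. The other sample, input DNA without antibody, was not analysed here. Each antibody had 1 library, so there were no replicates and no test between conditions. A peak is a stretch of genome that the authors' peak caller found enriched, and each has a score. Scores ran from 50 to 3100 and were used only to rank a peak within its own list, as the percent of peaks in that list with a score at or below it. Read counts were not part of the lists, so sequencing depth is unknown. Expression was not measured in these samples, so neither the levels of the 7 genes nor markers of the cell type could be examined. The paper also reports RNA-seq of SAOS2 cells with RUNX2 knockdown, which was not used here.

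RUNX2 is the transcription factor that directs osteoblast differentiation. It binds DNA through its Runt domain, and CBFB, which binds RUNX proteins and not DNA, strengthens that contact. Mineral is laid down where phosphate is released and its inhibitor, pyrophosphate, is removed. ALPL encodes tissue-nonspecific alkaline phosphatase, which cleaves pyrophosphate, and PHOSPHO1 releases phosphate inside matrix vesicles. ENPP1 makes pyrophosphate outside the cell and ANKH takes part in its export. SLC20A1 and SLC20A2 import phosphate, and PHEX is a membrane protease of osteoblasts and osteocytes whose loss causes renal phosphate wasting.

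The letters that RUNX proteins recognize, TGTGGT or its complement ACCACA, were found inside 13 of the 17 RUNX2 peaks (76.5%), a share near the 78.1% of the whole RUNX2 list. A core lay within 100 bp of the middle of 7 of these peaks. The copies below come from 6 of those 7, all but a peak of SLC20A2, and the last is from the single peak at an outermost gene start. Each is 40 bases of the GRCh37 genome, the hg19 build of the lists, written 5′ to 3′ on the strand that reads TGTGGT first. Capitals mark every copy of the core within the bases shown, in either orientation.
ALPL, chr1:21916849-21916888, minus strand: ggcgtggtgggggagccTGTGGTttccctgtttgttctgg
ALPL, chr1:21890909-21890948, minus strand: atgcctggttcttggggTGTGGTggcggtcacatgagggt
PHOSPHO1, chr17:47326999-47327038, minus strand: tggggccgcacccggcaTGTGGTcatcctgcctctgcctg
ANKH, chr5:14750142-14750181, plus strand: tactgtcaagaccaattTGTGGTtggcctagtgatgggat
ENPP1, chr6:132231013-132231052, minus strand: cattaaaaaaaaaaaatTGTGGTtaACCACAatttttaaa
ENPP1, chr6:132238548-132238587, plus strand: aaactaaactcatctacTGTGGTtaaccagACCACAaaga
ENPP1, chr6:132128803-132128842, minus strand: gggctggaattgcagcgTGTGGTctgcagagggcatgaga
None of these bases lies in an annotated UTR. The first of the ENPP1 runs after ANKH holds cores in both orientations with 2 bases between them, and the next holds cores in both orientations with 7 bases between them. A longer form, TGTGGTT, is in the first ALPL run, in the ANKH run and in both ENPP1 runs that follow it.

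RUNX2 peaks lay within 25 kb of 5 of the 7 genes (71.4%, exact Clopper-Pearson 95% interval 29.0 to 96.3), against 36.0% of all protein-coding genes. The genes with a RUNX2 peak were ALPL with 7, ENPP1 with 5, SLC20A2 with 3, and PHOSPHO1 and ANKH with 1 each. SLC20A1 and PHEX had none. CBFB peaks lay at 7 of 7 genes (interval 59.0 to 100), against 62.2% of protein-coding genes. ALPL had 9, ENPP1 had 6, ANKH and SLC20A2 had 4, PHOSPHO1 had 3, and SLC20A1 and PHEX had 1. With 7 genes, both intervals include the value over all protein-coding genes. These and all later intervals cover counting error only.

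**Figure D1:**
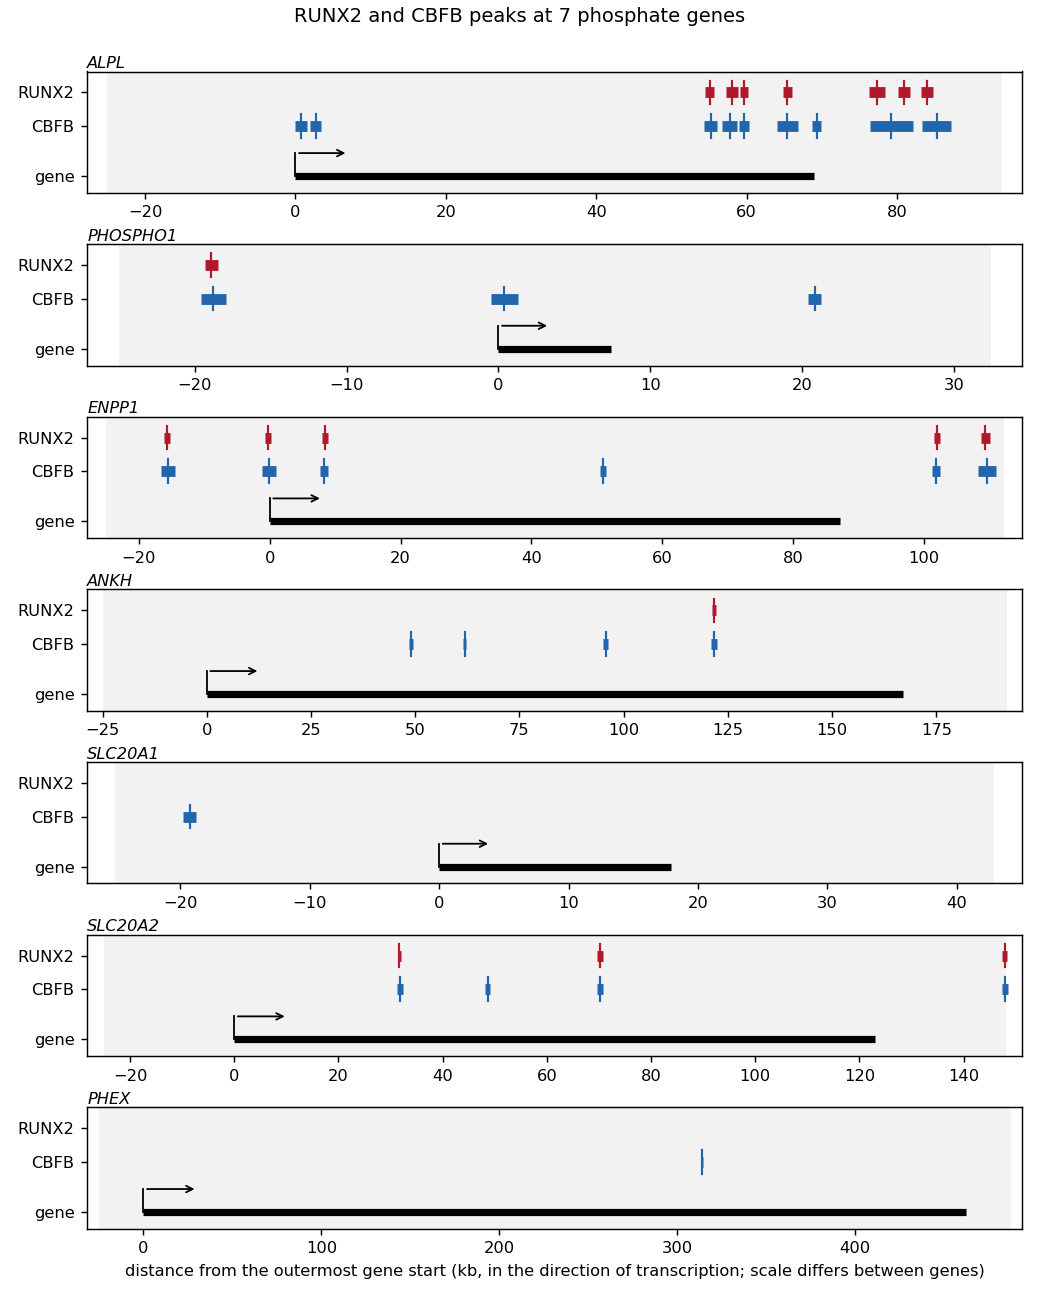
Position of each RUNX2 (red) and CBFB (blue) peak at the 7 genes, in kb from the outermost gene start in the direction of transcription, with the gene body in black, an arrow at the start and the 25 kb reach in grey. RUNX2 peaks gather at the far end of ALPL, surround ENPP1 on both sides and are missing at SLC20A1 and PHEX.

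Peaks are more often found at long genes, and the 7 genes differ widely in length. With protein-coding genes divided by length into 5 groups of equal size, 26.1% of the shortest group and 49.0% of the longest had a RUNX2 peak. PHEX, at 462 kb the longest of the 7, had no RUNX2 peak, and PHOSPHO1, at 7.42 kb the shortest, had 1. Per 100 kb of gene body with its reach, ALPL had 5.88 RUNX2 peaks, ENPP1 3.65, PHOSPHO1 1.74, SLC20A2 1.73 and ANKH 0.461. The CBFB densities were 7.56 per 100 kb at ALPL, 5.22 at PHOSPHO1, 4.38 at ENPP1, 2.31 at SLC20A2, 1.84 at ANKH, 1.47 at SLC20A1 and 0.195 at PHEX. ALPL was thus the densest of the 7 in both lists. As many RUNX2 peaks as at ALPL were found at 86 protein-coding genes (0.427%), and among the 14985 genes no longer than ALPL at 7, ALPL included in both. As many as at ENPP1 were found at 266 genes (1.32%), and among the 15989 no longer than ENPP1 at 53. SLC20A2 had as many as 1139 genes (5.65%), and PHOSPHO1 and ANKH were within the 36.0% that had any.

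**Figure D2:**
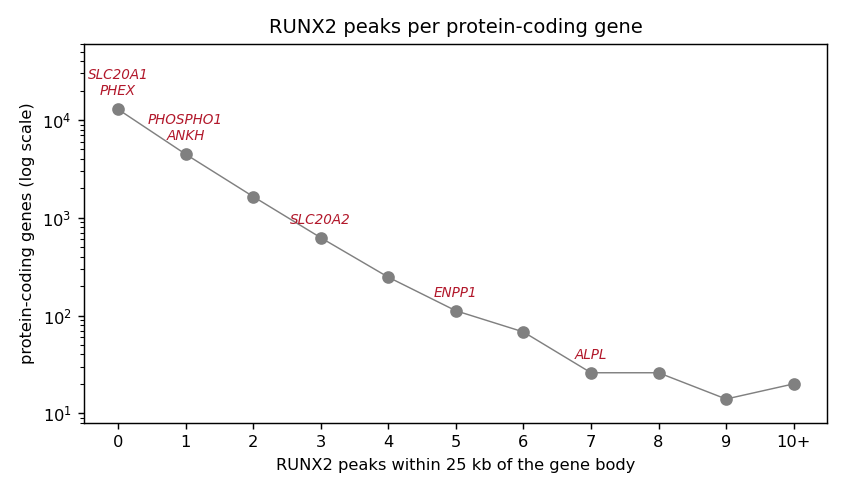
Number of protein-coding genes (log scale) with each number of RUNX2 peaks within 25 kb of the gene body, with the 7 genes written above the count they share. ALPL, with 7 peaks, shares its count or a higher one with 86 genes, ALPL included, while 12896 genes had no RUNX2 peak.

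ALPL lies at chr1:21835890-21904903 on the plus strand. Its 7 RUNX2 peaks all lay in a stretch of 30.3 kb that begins 54.5 kb past the gene start, with 4 in introns near the end of the gene and 3 beyond it. No RUNX2 peak lay at the outermost start of ALPL, and the next RUNX2 peak outside the reach was 140 kb away. In the whole RUNX2 list, only 2 separate runs of 7 peaks were packed into so short a stretch, this one and one at PLEC.

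Within the gene, the RUNX2 peak at chr1:21890421-21891551 had a score of 191.47 (88.5% of the list at or below it). The next, at chr1:21893157-21894699, scored 420.22 (98.4%), and its middle lay 2868 bp before the start of a shorter protein-coding ALPL transcript. A weaker peak at chr1:21895088-21896137 scored 144.86 (80.3%) and lay 1184 bp before that start. This inner start lies 60906 bp inside the gene, so by any annotated start ALPL counts as having RUNX2 peaks at a promoter, and by the outermost start it does not. The fourth, at chr1:21900752-21901897, was the lowest of the 7 with 86.07 (51.5%), and it was the only one of them in which the RUNX core was not found.

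Beyond the gene, chr1:21912238-21914367 scored 343.9 (97.2%) and chr1:21916010-21917691 scored 434.16 (98.6%). Both lay in the long noncoding gene LINC02596, 8.4 and 11.9 kb past the end of ALPL. The middle of the first lay 337 bp past a start of LINC02596. The last, chr1:21919060-21920736, was intergenic, 15.0 kb past the end, and scored 235.9 (92.9%). Its middle lay 857 bp before a start of AL359815.1, a gene not annotated as protein-coding. RAP1GAP, a regulator of small GTPases, was the other protein-coding gene within 25 kb of these 3 peaks and of the fourth, and a gene without a symbol, ENSG00000289715, was within 25 kb of the 4 inside ALPL. Peak lists cannot assign a peak to any of these genes. Together 6 of the 7 ranked in the highest 20% of the RUNX2 list, and 6 of the 7 held a RUNX core somewhere, 7 copies in 10359 bp of peak, where 78.1% of all RUNX2 peaks held one.

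CBFB peaks overlapped all of these 7 RUNX2 peaks, as they did 94.2% of the whole RUNX2 list. Here any shared base counted as an overlap. The paper reports a lower share of RUNX2 peaks overlapping CBFB peaks, and its methods do not state the overlap rule. The 4 RUNX2 peaks within ALPL were paired with CBFB scores of 739.87 (95.8% of the CBFB list), 1340.42 (98.9%), 404.86 (88.0%) and 482.61 (90.9%), in order along the gene. Past the end, a single CBFB peak at chr1:21912272-21918070 spanned both RUNX2 peaks of LINC02596. It scored 2747.23 and ranked 39 in its list, and at 5799 bp it was 1 of only 114 CBFB peaks (0.418%) as wide or wider. The last pair had a CBFB score of 740.59 (95.8%). ALPL also had 3 CBFB peaks with no RUNX2 peak, all below the CBFB median: one over the outermost start, with its middle 761 bp past it (98.47, 40.0%), one 2674 bp past it (89.06, 34.7%) and one at the gene end (61.38, 13.5%).

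**Figure D3:**
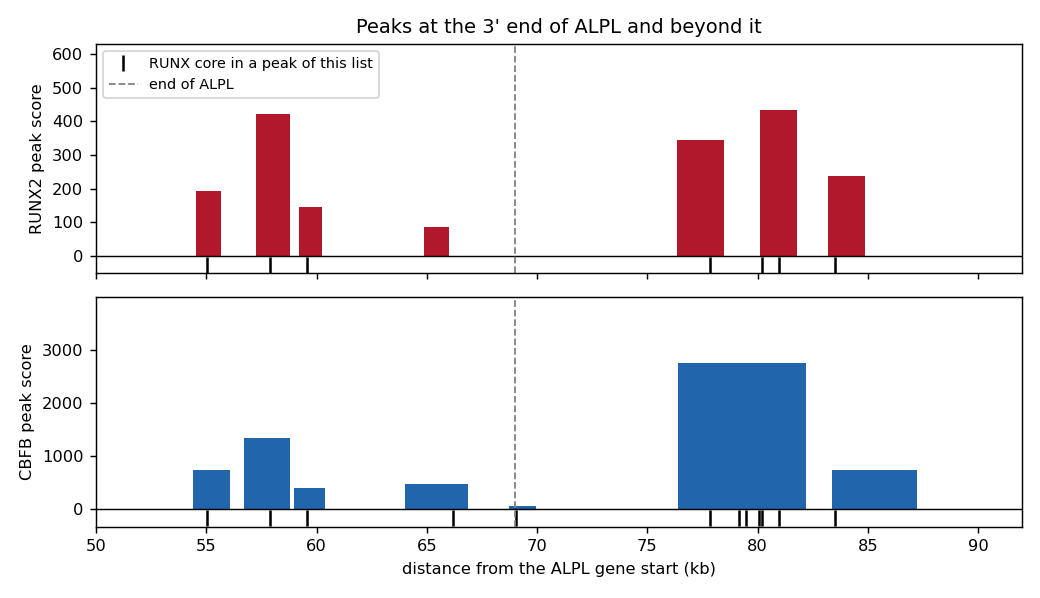
Score of each RUNX2 peak (top) and CBFB peak (bottom) at the far end of ALPL and beyond, against distance in kb from its start. Each bar is as wide as its peak, with ticks for each RUNX core found there in a peak of that list. CBFB peaks near the outermost start lie outside the range shown. The 7 RUNX2 peaks run from 86.07 to 434.16 on both sides of the gene end (dashed), and 1 CBFB peak covers both of the higher RUNX2 bars past it.

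PHOSPHO1 lies at chr17:47300728-47308149 on the minus strand. Its single RUNX2 peak, chr17:47326617-47327476, lay 18.9 kb before the gene start in the noncoding gene FLJ40194 and was weak, with a score of 53.72 (8.62%). The overlapping CBFB peak scored 240.39 (75.9%). At the start of PHOSPHO1 itself, only CBFB had a peak, from 47306883 to 47308660, with a score of 171.82 (64.7%). Another CBFB peak past the gene end lay in GNGT2 and 445 bp before the start of ABI3, and scored 56.82 (8.42%). The next RUNX2 peak outside the reach was 32.4 kb from the gene and scored 83.55 (49.6%).

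ENPP1 lies at chr6:132129156-132216295 on the plus strand, and no other protein-coding gene lay within 25 kb of its peaks. Its 5 RUNX2 peaks differed most in rank among the genes. The one at the gene start, chr6:132128503-132129429, was close to the bottom of the list with 50.24 (0.694%), 190 bp before the start. Outside the gene, chr6:132112938-132113939 scored 199.64 (89.5%), 15.7 kb before the start and 126 bp from MIR548H5. An intronic peak at chr6:132137202-132138108 scored 109.21 (66.9%), 8.5 kb into the gene. The remaining peaks lay past the gene end in the noncoding gene LINC01013. They were chr6:132230592-132231628, with a score of 120.8 (72.2%), 14.8 kb past the end, and chr6:132237817-132239209, with 140.48 (78.9%), 22.2 kb past it. The middle of the former lay 221 bp before a start of LINC01013. The coding start nearest to the latter was that of CCN2, a matricellular growth factor gene, 33999 bp away. The stronger RUNX2 peaks of ENPP1 were therefore those outside the gene and the weakest was at its start. CBFB overlapped all 5, where 94.2% of the whole RUNX2 list had such an overlap. The CBFB scores were 751.73 (95.9%) before the gene, 223.74 (73.8%) at the start and 239.61 (75.8%) in the intron. Past the end they were 449.4 (89.8%) and 599.97 (93.7%). The other CBFB peak, in an intron, had no RUNX2 peak and scored 87.46 (33.8%). ENPP1 was also the gene at which the count grew most with the reach, from 2 RUNX2 peaks within 5 kb to 5 within 25 kb and 11 within 100 kb. The 100 kb reach runs into the neighbouring gene ENPP3, which ends at chr6:132068558 and has RUNX2 peaks of its own. The nearest RUNX2 peak outside the 25 kb reach of ENPP1, chr6:132086085-132086974, lay within 25 kb of ENPP3.

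Of the 7 genes, ENPP1 alone had a RUNX2 peak with its middle within 5 kb of the outermost start, against 12.1% of protein-coding genes. CBFB had one at 3, namely ALPL, PHOSPHO1 and ENPP1, against 30.5%. Counting any annotated start, RUNX2 had one at ALPL, ENPP1 and ANKH, against 16.8%, and CBFB at these 3 and PHOSPHO1, against 37.9%. The 250 bases before the RefSeq start (from GRCh38.p14) were matched to GRCh37 for 5 of the 7 genes. Those of ENPP1 and PHOSPHO1 are shown because a peak covered all 250 bases, in ENPP1 of both RUNX2 and CBFB and in PHOSPHO1 of CBFB alone. They are written 5′ to 3′ on the gene's strand, with GC boxes, GGGCGG or CCGCCC, in capitals.
ENPP1, chr6:132128910-132129159, plus strand: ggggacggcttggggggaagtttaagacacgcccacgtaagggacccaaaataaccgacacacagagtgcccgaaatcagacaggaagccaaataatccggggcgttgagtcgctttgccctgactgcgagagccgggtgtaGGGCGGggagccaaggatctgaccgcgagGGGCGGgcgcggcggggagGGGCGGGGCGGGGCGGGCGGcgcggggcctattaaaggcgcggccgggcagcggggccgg
PHOSPHO1, chr17:47308150-47308399, minus strand: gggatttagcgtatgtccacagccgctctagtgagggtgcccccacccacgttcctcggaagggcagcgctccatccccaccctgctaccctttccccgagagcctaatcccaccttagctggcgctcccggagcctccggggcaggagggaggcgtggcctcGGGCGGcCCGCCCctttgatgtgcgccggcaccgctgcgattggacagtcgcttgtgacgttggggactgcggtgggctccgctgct
ENPP1 had 6 GC boxes and a GC content of 68.8%, and PHOSPHO1 had 2 and 68.0%. Those of ALPL, ANKH and SLC20A1 were touched by no peak. The ALPL window, chr1:21835227-21835476, lies before the annotated gene start used elsewhere here, chr1:21835890. A CBFB peak lay over that start and did not reach the window. The RUNX core was found in 0 of the 5 promoters and in 11.0% of 35116 promoters of this length, and the GC box in 42.6%. The core of the ENPP1 start peak, printed above, lay just before this window.

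ANKH lies at chr5:14704909-14871887 on the minus strand. Its RUNX2 peak, chr5:14749730-14750703, was intronic, 122 kb past the gene start and 880 bp before the start of a retained-intron transcript, and scored 146.65 (80.7%). The CBFB peak over it scored 763.55 (96.0%), with the middles only 29 bp apart. CBFB had 3 further intronic peaks at ANKH with no RUNX2 peak, which scored 273.09 (79.5%), 83.57 (31.3%) and 60.99 (13.2%). The first of these had the highest rank of any CBFB peak without RUNX2 at the 7 genes.

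Of the phosphate importers, SLC20A1 at chr2:113403516-113421402 had no RUNX2 peak within 100 kb, the nearest being 103 kb away with a score of 75.43 (42.1%). Its single CBFB peak lay 19.3 kb before the start and scored 132.19 (54.0%). SLC20A2, at chr8:42273993-42397069 on the minus strand, had 3 RUNX2 peaks. An intronic peak at chr8:42326326-42327419 scored 147.49 (80.9%), 70.2 kb past the start, and held 4 RUNX cores. A narrow intronic peak of 581 bp at chr8:42365069-42365649 scored 134.5 (77.0%), 31.7 kb past the start. The third, chr8:42248743-42249604, lay 24.8 kb past the gene end, just inside the reach, and 31 bp from the start of VDAC3, a mitochondrial outer membrane channel gene. It scored 69.75 (35.3%) and held no core. DKK4 and POLB were also within 25 kb of this peak. The CBFB peaks over these 3 scored 687.27 (95.1%), 122.85 (50.6%) and 199.4 (70.0%), and a CBFB peak without RUNX2 scored 63.35 (15.4%). The 2 importers thus differed, with both intronic RUNX2 peaks at SLC20A2 in the upper part of the list and none at SLC20A1. They also differ in length. SLC20A1, at 17.9 kb, is in a length group where 32.6% of genes had a RUNX2 peak. SLC20A2, at 123 kb, is in the longest group, where 49.0% had one. No test of the difference in RUNX2 peaks was possible with 1 library.

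PHEX, at chrX:22050443-22512830 on the plus strand, had no RUNX2 peak, and the nearest was 192 kb away with a score of 102.15 (63.1%). Its single CBFB peak lay in an intron 314 kb past the start and scored 57.56 (9.26%). That peak was in reach only because noncoding transcripts were counted in the gene body, and with protein-coding transcripts alone PHEX had no peak in either list.

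The RUNX2 peaks of the 7 genes ranked high in their list. Their median rank was 80.3%, in a range from 0.694% to 98.6%, and their median score was 145 against 84.1 in the list. At or above the list median were 14 of 17 (82.4%, interval 56.6 to 96.2), and 9 of 17 lay in the highest 20% (52.9%, interval 27.8 to 77.0). ALPL supplied 6 of those 9, and the other genes had 3 of 10. CBFB peaks had a median rank of 74.8%, and 11 of 28 lay in the highest 20% (39.3%, interval 21.5 to 59.4). Peaks at one gene are neighbours and not independent, so these intervals are too narrow.

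**Figure D4:**
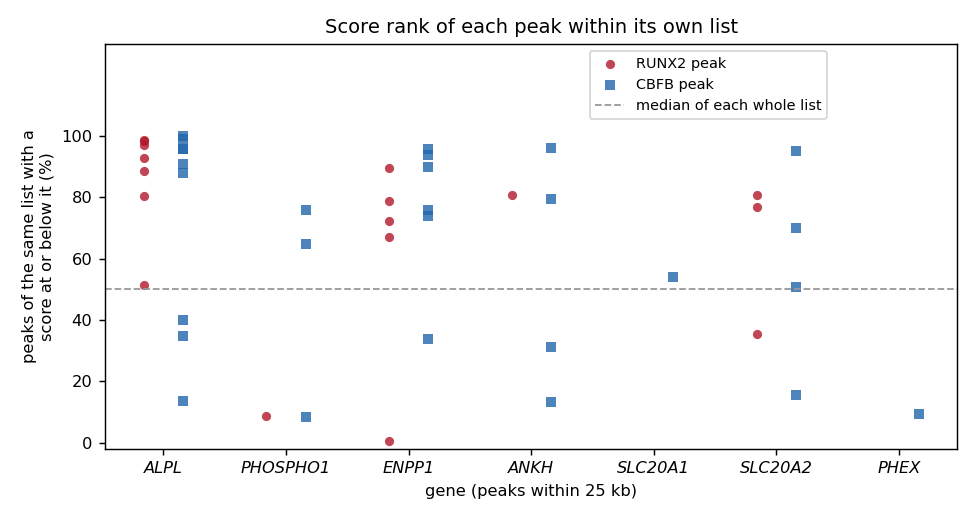
Rank of each RUNX2 (red circles) and CBFB (blue squares) peak at the 7 genes, as the percent of its own list with a score at or below it, with the list median dashed. The RUNX2 peaks of ALPL all lie above the median, and those at the start of ENPP1 and before PHOSPHO1 lie near the bottom.

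Every RUNX2 peak at the 7 genes shared at least 1 bp with a CBFB peak, 17 of 17 (interval 80.5 to 100), against 94.2% of the RUNX2 list. With 50% of each peak required, 10 of 17 did (58.8%) against 75.2%, and the pairs that failed were 4 at ALPL and 3 at ENPP1, where the CBFB peak was broader. Conversely, 16 of 28 CBFB peaks overlapped a RUNX2 peak (57.1%, interval 37.2 to 75.5) against 33.8% of the CBFB list. CBFB peaks with RUNX2 had a median rank of 92.3% and the 12 without it 32.5%. Over the whole list, these medians were 80.0% and 35.9%. The middles of paired peaks were a median of 132 bp apart, from 15 bp in the fourth ALPL pair to 1869 bp under the broad CBFB peak, against 96 bp in the list.

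In 16 of the 17 pairs the CBFB peak ranked higher in its list than the RUNX2 peak in its own, as in 84.8% of 9365 pairs of the whole list. The lists differ in length, and a percent rank is relative to its own list, so the order of the ranks within a pair does not compare the strength of RUNX2 and CBFB. Over all pairs of the list the median ranks were 52.3% for RUNX2 and 80.5% for CBFB, and over the 17 pairs they were 80.3% and 93.7%. At the start of ENPP1 the ranks were 0.694% for RUNX2 and 73.8% for CBFB, and before PHOSPHO1 they were 8.62% and 75.9%. At the narrow intronic peak of SLC20A2 the order was the other way, with 77.0% for RUNX2 and 50.6% for CBFB.

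**Figure D5:**
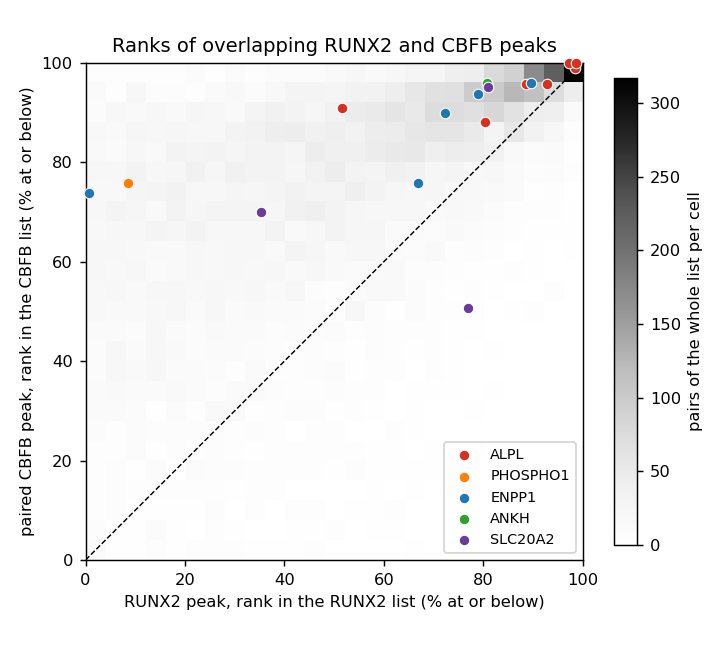
Rank of each RUNX2 peak in its list (x axis, percent at or below) against that of the CBFB peak over it (y axis), for the 17 pairs at the 7 genes (coloured by gene) over the number of pairs of the whole list in each square (grey). Of the 17 points, 16 lie above the dashed line of equal rank, as do most pairs of the list, and the point below it belongs to SLC20A2.

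The RUNX core lay within 100 bp of the middle of 7 of 17 RUNX2 peaks (41.2%, interval 18.4 to 67.1), close to the 43.2% of the list. In equally wide windows placed 2 kb away on each side and free of peaks, it was found in 2 of 26 at these genes (7.69%) and in 13.6% over the list. The longer form TGTGGTT was found in 5 of 17 (29.4%) against 23.4%, and the AP-1 letters TGANTCA in 2 of 17 (11.8%) against 13.1%. Of the TEAD letters GGAATG, 3 of 17 windows held a copy (17.6% against 15.5%), and of the ETS letters CCGGAA, 0 of 17, which allows a share of up to 19.5% against 6.1% in the list. All motifs were read on both strands, and TGTGGTT contains the core. The 4 RUNX2 peaks without a core anywhere were one at ALPL (86.07), those before ENPP1 and in its intron (199.64 and 109.21) and that at VDAC3 (69.75). In CBFB peaks the core was near the middle of 8 of 28 (28.6%, interval 13.2 to 48.7) against 41.6%, and anywhere in 25 of 28 (89.3%) against 80.9%. None of the 9 CBFB peaks of ALPL, several of them broad, had a core within 100 bp of its middle.

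The ENPP1 peaks in LINC01013 were the only 2 of the 17 with at least 2 cores within 100 bp of the middle, as were 10.5% of RUNX2 peaks in the list. The arrangement in the first of them, TGTGGT then 2 bases then ACCACA, was found in this window in 8 of 9928 RUNX2 peaks (0.0806%). The reverse order, ACCACA first, was not counted. The nearer of these cores lay 5.5 bp from the middle of the CBFB peak there.

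A wider list of 22 genes of phosphate handling was read the same way. RUNX2 peaks lay at 9 of them (40.9%, interval 20.7 to 63.6), near the 36.0% of all protein-coding genes, and CBFB peaks at 14 (63.6%), near 62.2%. Among the other alkaline phosphatases, ALPI, the intestinal form, had 1 RUNX2 peak of 354.22 (97.3%) close to its start. ALPG and ALPP, the germ cell and placental forms, shared 1 weak peak of 50.32 (0.936%). Of the ENPP family, ENPP3, the neighbour of ENPP1, had 5 RUNX2 peaks, the highest at 360.08 (97.5%). ENPP2, which makes lysophosphatidic acid, had 1 of 191.88 (88.5%). SMPD3, a sphingomyelinase needed for mineralization, had 2, the higher at 94.02 (57.9%). XPR1, the phosphate exporter, had 1 of 67.69 (32.5%). KL, the FGF23 co-receptor Klotho, had 1 of 152.55 (82.0%), and GALNT3, which glycosylates FGF23, had 1 of 56.5 (14.5%). All 13 distinct RUNX2 peaks at the wider list overlapped a CBFB peak, as did 94.2% of the whole RUNX2 list. No RUNX2 peak lay at PHOSPHO2, PPA1, PPA2, NT5E, ABCC6, ENTPD1, SLC34A1, SLC34A2, SLC34A3, FGF23, DMP1, MEPE or FAM20C.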

How the data were processed

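ChIP-seq peak lists of SAOS2 cells were analysed, 1 for RUNX2 and 1 for CBFB, each from 1 library. Per the submitters' processing notes, CASAVA 1.8.2 and MACS 1.4.1 were used with hg19. The aligner, the calling limit and any use of the input as control are not given in the sources used here. The deposited lists hold positions and a score per peak, with no read counts, so depth is unknown. The score was read as the MACS score, -10 times log10 of the p-value, from its range and the peak names.

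The GENCODE 44 annotation lifted to GRCh37 was used, with contigs matching hg19. The genes, the wider list and the motifs were chosen with earlier results of these data known, and the GC box and the core pairs after the sequences were seen. All 7 genes were named with every RUNX2 and CBFB peak, and of the wider list those with a RUNX2 peak with values. Peaks were assigned by any base within 25 kb of the gene body, and where several CBFB peaks overlapped 1 RUNX2 peak, the pair took the one with the top score. Motifs were read in the reference within 100 bp of peak midpoints, and 13 RUNX2 and 42 CBFB peaks on other contigs were left out of that step. Shares carry exact 95% intervals (Clopper-Pearson). No test was run, because each antibody had 1 library. Counting steps were checked on simulated lists. Analyses used Python 3.11.15, numpy 2.4.6, pandas 2.3.3, scipy 1.17.1 and matplotlib 3.10.9.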

Additional observations from a re-analysis of the deposited data

How the results depend on the processing

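Of 47 values recomputed under other settings, 32 moved by less than 1.5 times for a count or stayed within the 95% interval for a share. With a reach of 5 kb there were 9 RUNX2 peaks, and with 100 kb 26 RUNX2 and 45 CBFB peaks. Without ALPL 10 RUNX2 peaks were left, so ALPL decided much of the RUNX2 count. The share of RUNX2 peaks with a CBFB peak was 58.8% with 50% of each peak shared, against 75.2% in the whole list. With middles within 200 bp it was 70.6%, against 68.8% in the whole list. The CBFB share fell to 35.7% with 50% of each, against 27.4% in the whole list. With only as many CBFB peaks as RUNX2 peaks, taken by score, 17 CBFB peaks were left and 88.2% of them had a RUNX2 peak. The share over the whole CBFB list under this cut is not given here. In the whole list too, CBFB peaks with RUNX2 ranked higher, with a median of 80.0% against 35.9% without it. The core share of RUNX2 peaks was 17.6% within 50 bp and 76.5% over the whole peak, and that of CBFB peaks 89.3% over the whole peak. On the wider list, genes with a RUNX2 peak numbered 5 with a reach of 5 kb, 14 with 100 kb and 5 with scores at or above the list median. Genes of the 7 with a peak stayed between 4 and 5 for RUNX2 and between 5 and 7 for CBFB in every setting run. Wider settings take in more sequence by construction, and beyond that the cause was not tested. No paired analysis was possible because there was only 1 library per antibody.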
